A study of Mus musculus with 768 samples.

Results

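The 5 muscarinic acetylcholine receptor genes, Chrm1 to Chrm5, were followed through single nuclei of the mouse striatum. They were taken by symbol from a table of 24489 genes, which held all 5. The mice were untreated, of C57BL/6 background, and carried H2BG with either Oprm1-Cre, by which the study meant to include patch neurons, or Slc32a1-Cre, meant for GABAergic neurons. Of 768 wells, 1 plate of equal size for each genotype, 736 nuclei passed filters on depth, with 29 Oprm1-Cre and 3 Slc32a1-Cre wells left out. The labels name no animals, so each genotype counts as 1 sample and genotypes are compared without a test. A Cre line marks cells by the history of its driver gene, and the text on the samples does not say how nuclei were picked.

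Muscarinic receptors are G protein-coupled receptors for acetylcholine, which cholinergic interneurons release throughout the striatum. The M1, M3 and M5 receptors (genes Chrm1, Chrm3 and Chrm5) act through Gq/11 proteins and phospholipase C, and M2 and M4 (Chrm2 and Chrm4) act through Gi/o proteins that lower cyclic AMP. The output neurons of the striatum, spiny projection neurons (SPNs), fall into a type with the dopamine receptor gene Drd1, called Drd1a in the table, and a type with Drd2. M4 is best known here from the Drd1 type, where it opposes dopamine signalling, and from cholinergic interneurons, where it and M2 restrain acetylcholine release.

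The promoters of Chrm4, Chrm3 and Chrm2, the receptors whose levels are set between cell classes below, are printed 5′ to 3′ from a RefSeq promoter table of build GRCm38.p6, as windows from 250 bases before to 50 bases after 1 start that the table uses for each gene. For Chrm4 it is the start of the gene span given below, while for Chrm2 and Chrm3 it lies inside that span, so that the Chrm3 window holds no base outside the gene. Capitals mark GC boxes, the letters GGGCGG or, on the other strand, CCGCCC. Of the 5 genes, 4 matched the promoter table by symbol, and Chrm1 did not. Gene positions come from a separate RefSeq gene table of the same build, which holds all 5.
Chrm4, chr2:91921939-91922238, plus strand: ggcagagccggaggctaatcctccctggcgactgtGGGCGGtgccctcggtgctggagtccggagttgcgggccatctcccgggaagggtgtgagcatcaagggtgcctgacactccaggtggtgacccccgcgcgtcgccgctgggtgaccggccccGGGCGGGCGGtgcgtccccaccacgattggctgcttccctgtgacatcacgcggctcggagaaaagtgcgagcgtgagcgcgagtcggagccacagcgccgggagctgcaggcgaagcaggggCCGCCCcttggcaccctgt
Chrm3, chr13:10360754-10361053, minus strand: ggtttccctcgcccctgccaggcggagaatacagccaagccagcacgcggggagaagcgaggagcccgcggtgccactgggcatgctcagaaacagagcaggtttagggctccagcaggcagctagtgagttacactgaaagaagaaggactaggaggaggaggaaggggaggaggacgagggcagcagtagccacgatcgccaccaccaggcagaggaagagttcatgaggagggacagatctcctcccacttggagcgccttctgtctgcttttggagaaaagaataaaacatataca
Chrm2, chr6:36387834-36388133, plus strand: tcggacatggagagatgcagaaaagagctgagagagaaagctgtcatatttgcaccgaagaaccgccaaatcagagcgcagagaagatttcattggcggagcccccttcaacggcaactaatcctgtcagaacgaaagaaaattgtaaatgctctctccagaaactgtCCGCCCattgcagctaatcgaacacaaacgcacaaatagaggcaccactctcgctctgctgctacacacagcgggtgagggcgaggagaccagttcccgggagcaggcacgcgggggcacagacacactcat
The Chrm4 promoter held 4 GC boxes, 2 of them overlapping, and 70.7% G or C. The Chrm2 promoter held 1 GC box and 52.7% G or C, and the Chrm3 promoter held 0 and 57.3%. Among 32544 promoters of the table, 35.9% held a GC box and the median share of G or C was 53%. The letters describe these windows only.

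Kept nuclei had a median of 169398 reads on genes in Oprm1-Cre (22727 to 581313) and 175337 in Slc32a1-Cre (34513 to 487842). An SPN-like nucleus was called D1-like or D2-like when its mean log2(CPM + 1) over 7 D1 markers and over 7 D2 markers differed by more than 2. CPM is counts per 1000000 reads on genes, and no receptor of the family is a marker. D1-like nuclei numbered 495 in all, of which 300 were Oprm1-Cre. D2-like nuclei were 24 in Oprm1-Cre and 39.1% of the kept nuclei in Slc32a1-Cre, and 18 and 21 SPN-like nuclei stayed undecided. Clusters led by interneuron markers held 13 Oprm1-Cre and 16 Slc32a1-Cre nuclei. The D1 markers that made these classes summed to 6261 and 5102 CPM in Oprm1-Cre and Slc32a1-Cre D1-like nuclei, against 38.1 and 261.7 CPM in D2-like ones. The D2 markers summed to 187.5 and 175.8 CPM in D1-like nuclei, against 18653 and 21439.9 CPM in D2-like ones. At least 1 of 4 Y-linked genes was read in 91.7% of Oprm1-Cre and in 0% of Slc32a1-Cre D1-like nuclei, so genotype, plate and sex cannot be told apart.

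Each receptor had its own distribution over these classes. Chrm1 was abundant in both SPN types and lower in interneuron-like nuclei. Chrm4 was abundant in D1-like nuclei and almost without reads in D2-like nuclei. Chrm3 was found at low levels in a minority of D2-like nuclei and in 4 interneuron-like nuclei, Chrm2 mainly in interneuron-like nuclei, and Chrm5 in 1 nucleus of 736.

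**Figure D1:**
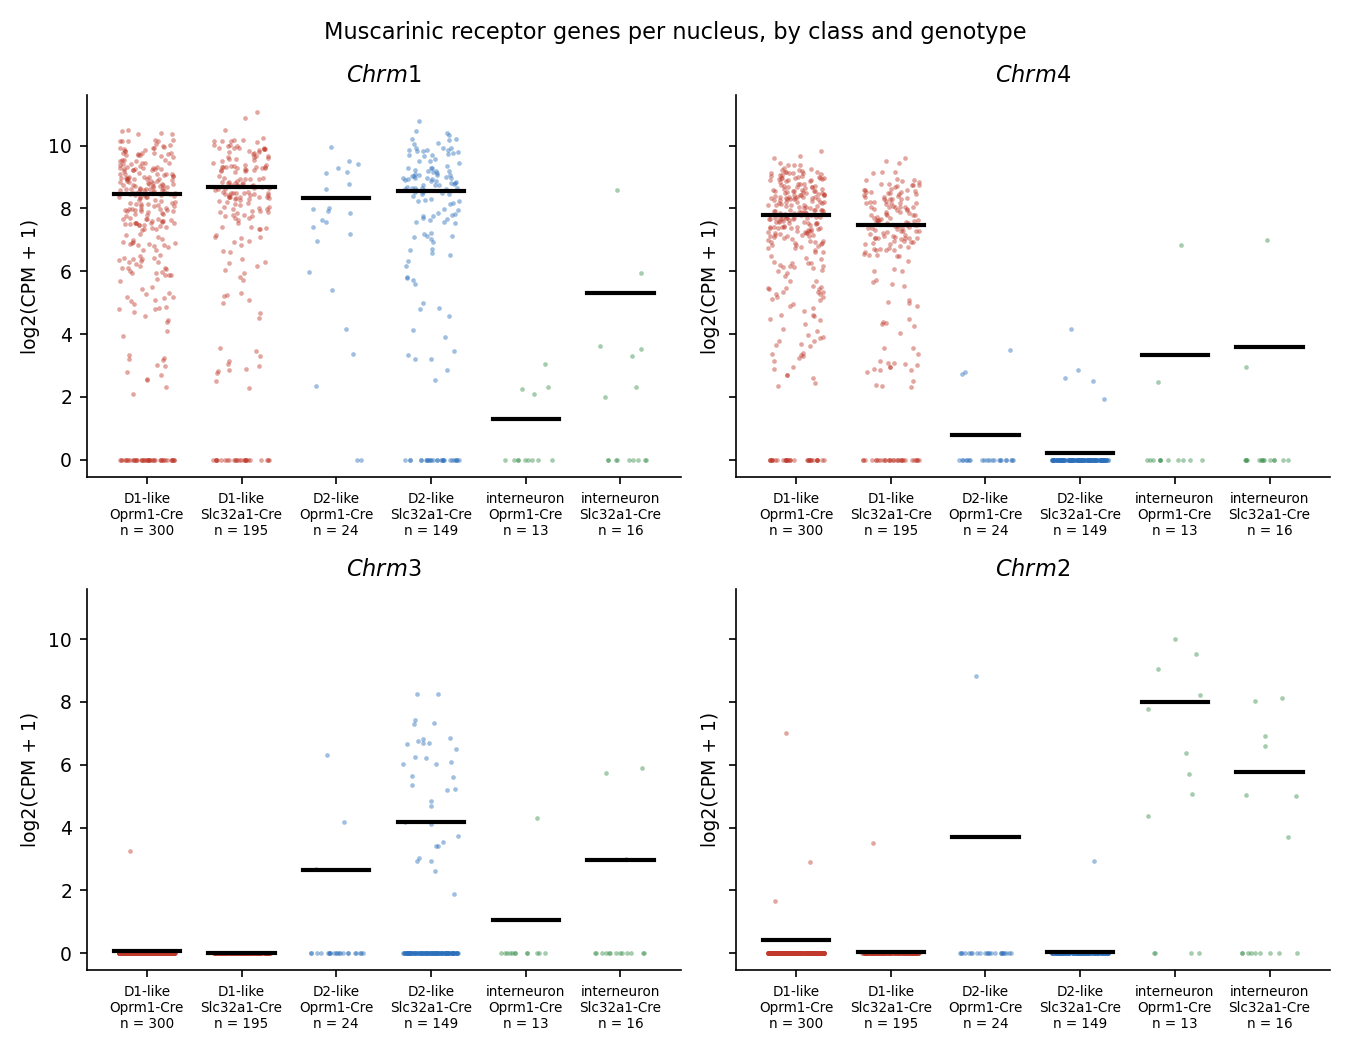
Each point is 1 nucleus, the vertical axis is log2(CPM + 1), and the columns are the classes in the Oprm1-Cre and Slc32a1-Cre plates. Black lines are the CPM of the summed reads of a class, such as 220.9 CPM of Chrm4 for Oprm1-Cre D1-like nuclei against 0.727 CPM for Oprm1-Cre D2-like nuclei.

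Chrm4, the gene of the M4 receptor, lies on chromosome 2 of GRCm38 at 91922189 to 91929835 on the plus strand in RefSeq, and its coding sequence lies in 1 exon. In Oprm1-Cre the summed level was 220.9 CPM for D1-like nuclei (Poisson 95% interval 217.02 to 224.9) and 0.727 CPM for D2-like nuclei (0.15 to 2.13), a ratio of 303.8 (103.9 to 1473). In Slc32a1-Cre it was 175.5 CPM for D1-like nuclei (171.2 to 179.9) and 0.169 CPM for D2-like nuclei (0.0547 to 0.393), a ratio of 1041 (446 to 3208). The D2-like values rest on 3 and 5 reads, with at most 1 read in any nucleus. Intervals cover counting error only, since reads copied by PCR are not independent molecules.

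Per nucleus, D1-like Chrm4 ranged over 0, 181.6 and 910.5 CPM in Oprm1-Cre (lowest, median and highest) and over 0, 141.8 and 782 CPM in Slc32a1-Cre. The highest D2-like nucleus had 10.2 CPM in Oprm1-Cre and 17.1 CPM in Slc32a1-Cre, so the classes overlapped only at the low end of the D1-like range. With each nucleus thinned to 50000 reads, Chrm4 was read in 83.6% of Oprm1-Cre D1-like nuclei (exact Clopper-Pearson 95% interval 78.9% to 87.6%) and in 8.33% of D2-like ones (1.03% to 26.997%). The Slc32a1-Cre shares were 75.3% of D1-like nuclei (68.6% to 81.2%) and 0.671% of D2-like ones (0.017% to 3.68%). A minority of D1-like nuclei had no Chrm4 read at full depth, 33 in Oprm1-Cre and 30 in Slc32a1-Cre. Their median depth was 151980.0 reads in Oprm1-Cre, against 170232 in nuclei with Chrm4, and 144044 reads in Slc32a1-Cre, against 179440.0.

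Each plate gave 1 pair of sums, and the 2 pairs were compared by edgeR's quasi-likelihood test with the plate as a block and Benjamini-Hochberg adjustment over 13819 genes. Chrm4 was higher in D1-like nuclei in 2 of 2 plates, with a log2 fold change of 9.34 ± 0.55 (SE) and an adjusted p of 0.00196. It was 1 of 5 genes called higher, or 0.0362% of those tested, while 11 genes, or 0.0796%, were called lower. Of the 5 family members 4 passed the filter on low counts, of which 1 was called higher and 0 lower. Over all of them, 597 genes had an unadjusted p under 0.05, and 2 of the 4 receptors tested did.

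**Figure D2:**
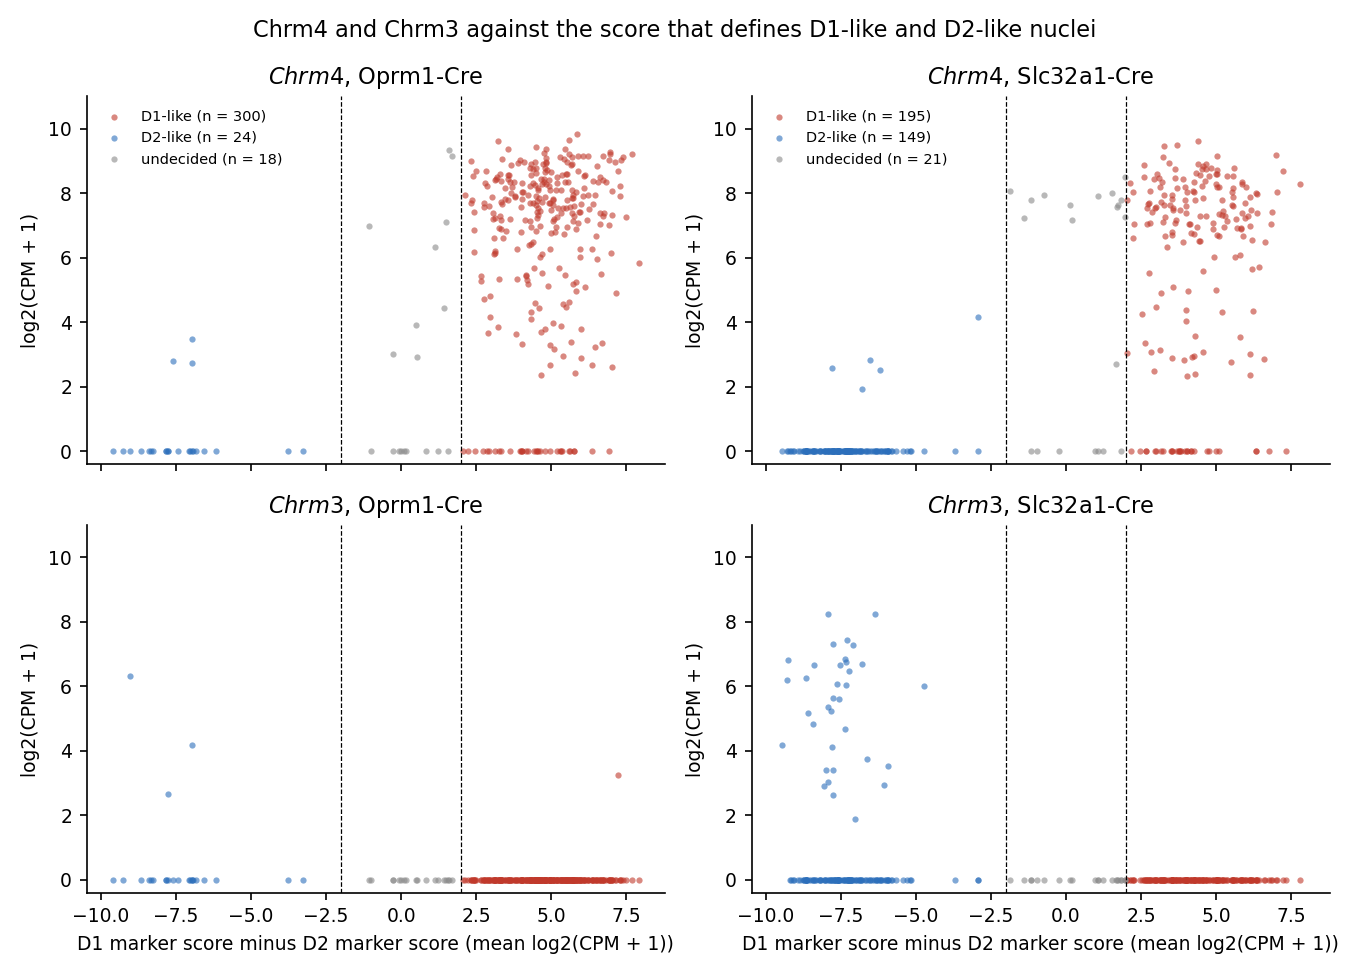
The vertical axis is log2(CPM + 1) of Chrm4 (upper row) or Chrm3 (lower row) in each SPN-like nucleus, and the horizontal axis is the D1 minus the D2 marker score, with dashed lines at the limits of -2 and 2. Nuclei with high Chrm4 lie on the D1 side or between the limits, and nuclei with Chrm3 lie on the D2 side except 1.

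Chrm3, the gene of the M3 receptor, lies on chromosome 13 at 9875486 to 10361062 on the minus strand. It had the reverse pattern of Chrm4 at a much lower read level. Oprm1-Cre D1-like nuclei had 0.0362 CPM, from 2 reads in 1 nucleus, and Slc32a1-Cre D1-like nuclei had 0 reads, which allows up to 0.0847 CPM by a floor of 3 reads in the sum. D2-like nuclei had 5.33 CPM in Oprm1-Cre (3.34 to 8.07) and 16.96 CPM in Slc32a1-Cre (15.5 to 18.5). The Slc32a1-Cre level in D2-like nuclei was 200.1 times that floor. The exact 95% lower limit of its ratio to the D1-like level was 162.2. Of the 553 Chrm3 reads in all kept nuclei, 94.9% fell in D2-like nuclei, a share that follows class size as well as level. Per nucleus Chrm3 was also read among the few interneuron-like nuclei with Sst and Npy, in 1 of 3 Oprm1-Cre nuclei at 18.8 CPM and in 3 of 5 Slc32a1-Cre nuclei at 59.2, 52.5 and 7.08 CPM. The summed level of those 5 Slc32a1-Cre nuclei, 21.9 CPM (13.9 to 32.9), did not differ from that of Slc32a1-Cre D2-like nuclei beyond counting error.

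Most D2-like nuclei nevertheless had no Chrm3 read. In Slc32a1-Cre 35 D2-like nuclei, or 23.5%, had reads, with a median of 48.8 CPM among those and a highest value of 304.03 CPM. In Oprm1-Cre 3 of 24 D2-like nuclei had reads, and 1 of them held 18 of the 22 reads. Thinned shares of D2-like nuclei were 8.33% in Oprm1-Cre (1.03% to 26.997%) and 19.5% in Slc32a1-Cre (13.4% to 26.7%). In edgeR's test the log2 fold change of D1-like over D2-like nuclei was -8.69 ± 1.89 (SE), with an unadjusted p of 0.00304 and an adjusted p of 0.646, so Chrm3 was not called. DESeq2 called it, with an adjusted p of 3.19e-05, and the adjusted p over 8 alternatives ran from 3.19e-05 to 0.9997. Among Slc32a1-Cre D2-like nuclei, the 17 of a small cluster (cluster 7) had 31.4 CPM (26.9 to 36.4) at a median depth of 322717 reads, against 14.7 CPM (13.2 to 16.4) at 176041 reads in the main one (cluster 1). Several annotated genes overlap Chrm3, 2 of them on the other strand, and whether counting used strand is not known.

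Chrm1, the gene of the M1 receptor, lies on chromosome 19 at 8664005 to 8683606 on the plus strand, with its coding sequence in 1 exon. It had the highest read count of the family, 47670, and ranked 397 of 24489 genes by CPM. Unlike Chrm4 it was abundant in both SPN types. In Oprm1-Cre it had 348.001 CPM for D1-like nuclei (343.1 to 352.95) and 323.9 CPM for D2-like nuclei (306.7 to 341.7), a ratio of 1.07 (1.02 to 1.14). In Slc32a1-Cre it had 407 CPM for D1-like nuclei (399.9 to 413) and 378.96 CPM for D2-like nuclei (371.99 to 386), a ratio of 1.07 (1.05 to 1.10). The log2 fold change of D1-like over D2-like nuclei was 0.05 ± 0.18 (SE), with an adjusted p of 0.999 by edgeR, and it lay between 0.02 and 0.06 over 8 alternatives.

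The spread of Chrm1 between nuclei was wide in each class. D1-like nuclei ranged over 0, 240.1 and 1454 CPM in Oprm1-Cre (lowest, median and highest) and over 0, 326.2 and 2135 CPM in Slc32a1-Cre. D2-like nuclei ranged over 0, 214.4 and 997 CPM in Oprm1-Cre and over 0, 339.7 and 1756 CPM in Slc32a1-Cre. The ranges of all 4 groups overlapped over most of their length. Thinned shares with a Chrm1 read were 81.2% of D1-like and 79.2% of D2-like nuclei in Oprm1-Cre, and 80.4% of D1-like and 77.9% of D2-like nuclei in Slc32a1-Cre, differences within their exact intervals.

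Whether Chrm1 or Chrm4 was the more abundant receptor of D1-like nuclei depended on the gene model. Per kilobase of coding sequence Chrm1 had 252.2 CPM and Chrm4 153.7 CPM in Oprm1-Cre, and 294.6 CPM and 122.2 CPM in Slc32a1-Cre. Per kilobase of all exons in GENCODE M21, in which the Chrm4 model holds little beyond its coding part, Chrm1 had 53.6 CPM and Chrm4 153.4 CPM in Oprm1-Cre, and 62.7 CPM and 121.9 CPM in Slc32a1-Cre. The annotation behind the counts is not known, so this order is not settled.

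Both receptors were often read in the same D1-like nucleus. After thinning, reads of both were found in 67.8% of Oprm1-Cre D1-like nuclei (62.2% to 73.1%), beside 67.9% from the product of the separate shares. The Slc32a1-Cre share was 62.9% (55.7% to 69.7%), beside 60.5%. Reads of Chrm1 alone were seen in 13.4% of Oprm1-Cre and 17.5% of Slc32a1-Cre D1-like nuclei, and reads of Chrm4 alone in 15.8% and 12.4%. Across D1-like nuclei the Pearson r of their log2(CPM + 1) was 0.04 in Oprm1-Cre (n = 300) and 0.11 in Slc32a1-Cre (the rest of the 495), which is too weak to read as a relation in sparse counts. Among Slc32a1-Cre D2-like nuclei, Chrm1 and Chrm3 were both read in 15.4%, beside 15.2% from the product.

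Clusters of the D1-like nuclei differed widely in Chrm1. Clusters 0, 2, 3 and 5 had between 342.3 and 519 CPM in both plates. Cluster 4, led by Coch and the cannabinoid receptor gene Cnr1, had 241.7 CPM in Oprm1-Cre (228.3 to 255.7, n = 32) and 197.6 CPM in Slc32a1-Cre (186.7 to 208.8, n = 39). Cluster 6, summed in Oprm1-Cre only (n = 35), had 117.5 CPM (107.6 to 128.1). Its nuclei were shallow, with a median of 117760.0 reads, and those of cluster 4 had medians of 140824 reads in Oprm1-Cre and 159995 in Slc32a1-Cre. Chrm4 ranged from 139.4 to 263.7 CPM over the Oprm1-Cre clusters and from 85.9 to 189.4 CPM over the Slc32a1-Cre ones. The clusters were made from variable genes of the whole table, so the values are descriptions. Sex-linked genes were among the 10 leading genes of some, Eif2s3y in clusters 0 and 6 and Xist in cluster 2. Chrm4 itself was among those of cluster 0. The part of depth and sex in these levels was not tested.

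**Figure D3:**
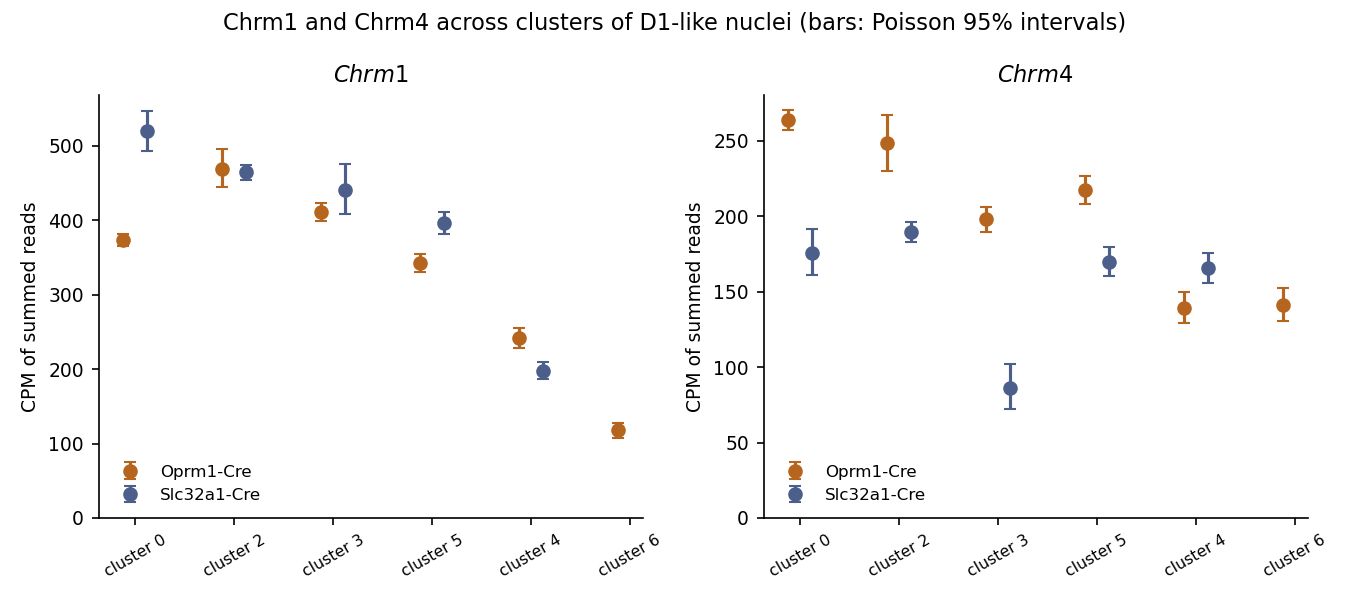
The vertical axes give CPM of summed reads of Chrm1 (left) and Chrm4 (right) in D1-like nuclei of each cluster, with Poisson 95% intervals, for the Oprm1-Cre and the Slc32a1-Cre plate. Chrm1 is lowest in cluster 6 (117.5 CPM) and cluster 4 (241.7 and 197.6 CPM).

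Chrm2, the gene of the M2 receptor on chromosome 6 at 36387991 to 36528638 on the plus strand, was the main receptor of the family by reads in interneuron-like nuclei. Oprm1-Cre interneuron-like nuclei had 252.3 CPM (233.99 to 271.7), against 5.04 CPM for SPN-like nuclei, a ratio of 50.1 (43.8 to 57.4). Slc32a1-Cre interneuron-like nuclei had 53.6 CPM (46.1 to 61.99), against 1.28 CPM for SPN-like nuclei, a ratio of 41.8 (32.2 to 54.6). Both ratios rest on a few SPN-like nuclei, described further on, that hold most of the Chrm2 reads of their class. Without the undecided nuclei, D1-like and D2-like nuclei together kept 67 Chrm2 reads in Oprm1-Cre, 49 of them in 1 nucleus, and 2 reads in Slc32a1-Cre. The ratios were then 223.8 (174.01 to 292.02) in Oprm1-Cre and 1743 (476 to 14504) in Slc32a1-Cre, an alternative chosen after seeing the data. The 29 interneuron-like nuclei held 68.8% of all 1283 Chrm2 reads, with at least 5 reads in 15 of them. Because these classes come from clusters of the same counts, no test was made.

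The interneuron-like nuclei fell into 3 clusters. In the cluster led by Trh, Th and Kit, with Th the gene of tyrosine hydroxylase, Chrm2 ranged over 0, 119.99 and 1033 CPM in 10 Oprm1-Cre nuclei (lowest, median and highest), and both Slc32a1-Cre nuclei had 0 reads. Of those 10 nuclei 6 had reads and 4 had none, the 4 at depths of at least 136265 reads. In the cluster led by the neuropeptide genes Sst and Npy, Chrm2 was 51.5, 81.6 and 32.3 CPM in the 3 Oprm1-Cre nuclei, and 31.6, 119.8, 275.9, 0 and 94.9 CPM in the 5 Slc32a1-Cre nuclei. So 7 of 8 Sst and Npy nuclei had Chrm2 reads. In the cluster led by Nxph1 and Kit, which held only Slc32a1-Cre nuclei, Chrm2 was 262.5, 31.4 and 11.9 CPM in 3 of 9 nuclei and 0 in the other 6. The makeup of the class thus differed between the plates, with 10 of 13 Oprm1-Cre nuclei in the Trh and Th cluster, against 2 of 16 Slc32a1-Cre nuclei.

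Chrm1 was low in Oprm1-Cre interneuron-like nuclei, with 1.44 CPM (0.392 to 3.68), against 343.3 CPM for SPN-like nuclei, and at most 1 read in any nucleus. Slc32a1-Cre interneuron-like nuclei had 38.5 CPM (32.2 to 45.7), against 382.8 CPM for SPN-like nuclei. Most of these reads came from 1 Sst and Npy nucleus with 383.4 CPM and another with 60.1 CPM, and without the first the log2 ratio to SPN-like nuclei was -4.88 in place of -3.16. The same 2 nuclei had 515 and 1029 CPM of Drd1a, and the second also had 127.4 CPM of Chrm4. The other 6 nuclei with Sst and Npy had between 0 and 428 CPM of Drd1a and at most 3.96 CPM of Chrm1. Over the whole list, the 10 SPN markers summed to 728 CPM for Oprm1-Cre and 761 CPM for Slc32a1-Cre interneuron-like nuclei, none of them at 0, against 10491 and 9718 CPM for D1-like nuclei. The part of SPN RNA in these reads was not tested.

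Among the undecided SPN-like nuclei, 2 of Slc32a1-Cre carried at least 5 reads of each cholinergic gene, Chat (synthesis), Slc18a3 (vesicular loading) and Slc5a7 (choline uptake), with 442 and 1405 CPM of Chat. Both had reads of the Gi/o-coupled receptors, with 164.2 and 198.8 CPM of Chrm2 and 254.2 and 221.4 CPM of Chrm4, and 0 reads of Chrm1, Chrm3 and Chrm5. They sat in an SPN-like cluster, although their SPN marker scores were low. No kept Oprm1-Cre nucleus carried the 3 genes at this level.

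A few other nuclei with Chrm2 lay outside the interneuron-like clusters. Among undecided nuclei, 3 of Oprm1-Cre had 369.3, 204.2 and 927 CPM. Each had reads of both SPN and interneuron genes. The first had 874 CPM of Trh, 166.4 CPM of Sst and 531 CPM of Drd1a, with 0 reads of Th and Kit. The second had 261.8 CPM of Kit but 0 reads of Th, Trh, Sst and Npy, beside 1278 CPM of Drd1a and 639 CPM of Adora2a. The last had 89.3 CPM of Th, 164.9 CPM of Trh and 405 CPM of Kit, beside 384.7 CPM of Adora2a. One Oprm1-Cre D2-like nucleus had 49 of the 50 Chrm2 reads of all D2-like nuclei (458 CPM), together with 1298 CPM of Sst. Its D2 score was 5.01 and its D1 score 1.76. It had 495 CPM of Drd1a and 28 CPM of Adora2a, against 13.6 and 1623 CPM summed over Oprm1-Cre D2-like nuclei, so its D2-like name is uncertain. This nucleus alone set the D2-like Chrm2 level of 11.9 CPM in Oprm1-Cre, against 0.0337 CPM in Slc32a1-Cre. In edgeR's test Chrm2 had a log2 fold change of -3.41 ± 2.41 (SE) and an adjusted p of 0.999, and it was -0.10 from Slc32a1-Cre alone. One gene, 9330158H04Rik, overlaps Chrm2 on the other strand.

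Chrm5, the gene of the M5 receptor on chromosome 2 at 112478733 to 112536361 on the minus strand, is best known from dopamine neurons of the midbrain. It had 83 reads, all in 1 Oprm1-Cre D1-like nucleus at 422 CPM, which also had 412 CPM of Chrm4, 66.05 CPM of Chrm1 and 716 CPM of Drd1a. This nucleus had a D1 score of 3.56 and a D2 score of 1.04, and a score margin above 4 left it out of the D1-like class. The other kept nuclei had 0 reads of Chrm5. For Slc32a1-Cre D1-like nuclei, 0 allows a share with a read of up to 1.54% by a limit of 3 counts over the nuclei of the class, and of up to 1.87% by the exact Clopper-Pearson limit.

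Part of the undecided SPN-like nuclei had Chrm4. In Oprm1-Cre 5 of 18 had at least 5 reads, at a summed 112.6 CPM (99.8 to 126.6). In Slc32a1-Cre 13 of 21 did, at 142.8 CPM (130.7 to 155.7). Chrm3 had 0 reads in all 39 of them.

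Within a plate, D1-like nuclei were ranked by a score of 14 patch genes minus 9 matrix genes, the compartments that differ in their inputs, and the upper and lower 100 Oprm1-Cre and 65 Slc32a1-Cre nuclei were compared. These are ranges of a score, with 75 and 42 nuclei within 0.25 of a limit. Chrm1 was 377.99 CPM in patch-leaning (369.3 to 387) and 331.5 CPM in matrix-leaning nuclei (323.2 to 340.1) of Oprm1-Cre. For Slc32a1-Cre it was 424 CPM in patch-leaning (413 to 437) and 342.3 CPM in matrix-leaning nuclei (332.2 to 352.7). These differences, of 0.19 and 0.31 on the log2 scale with 5 CPM added, exceed counting error but are small beside the spread between nuclei. Medians per nucleus went the same way in Oprm1-Cre, with 261.04 CPM in patch-leaning and 203.1 CPM in matrix-leaning nuclei, and the other way in Slc32a1-Cre, with 294.7 CPM in patch-leaning and 320.2 CPM in matrix-leaning nuclei.

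Chrm4 differed little along this axis in Oprm1-Cre, with 227.3 CPM in patch-leaning (220.5 to 234.1) and 220.8 CPM in matrix-leaning D1-like nuclei (214.04 to 227.8). For Slc32a1-Cre it was 189.8 CPM in patch-leaning (181.9 to 197.97) and 146.8 CPM in matrix-leaning nuclei (140.2 to 153.6), a log2 difference of 0.36. Whether the plates differ in this was not tested. In Slc32a1-Cre D2-like nuclei, 49 at each end of the score, Chrm1 was 391 CPM in patch-leaning and 373.01 CPM in matrix-leaning nuclei. Medians per nucleus went the other way, with 250.7 CPM in patch-leaning and 367.2 CPM in matrix-leaning nuclei. Thinned shares of Chrm1 there were 69.4% of patch-leaning (54.6% to 81.7%) and 89.8% of matrix-leaning nuclei (77.8% to 96.6%). Chrm3 was 13.9 CPM in patch-leaning and 20.01 CPM in matrix-leaning nuclei, an order that turned round when the score was split at its median.

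Between genotypes, 0 of the 2 members with at least 5 CPM in D1-like nuclei of either plate lay past 0.5 on the log2 scale with 5 CPM added. Of 11019 genes, 14.9% were above 0.5 and 12.1% below -0.5. Chrm1 was 348.001 CPM in Oprm1-Cre and 407 CPM in Slc32a1-Cre D1-like nuclei, a log2 ratio of -0.22. Chrm4 was 220.9 CPM in Oprm1-Cre and 175.5 CPM in Slc32a1-Cre D1-like nuclei, a log2 ratio of 0.32. The genotypes differed in which clusters their D1-like nuclei came from, with 43% of Oprm1-Cre and 9.74% of Slc32a1-Cre nuclei in cluster 0. Within the 5 clusters that both plates filled, Chrm4 was higher in Oprm1-Cre nuclei in 4, for example 263.7 CPM in Oprm1-Cre against 175.9 CPM in Slc32a1-Cre nuclei of cluster 0. It was lower in cluster 4, at 139.4 CPM in Oprm1-Cre against 165.5 CPM in Slc32a1-Cre nuclei. Chrm1 was lower in Oprm1-Cre than in Slc32a1-Cre nuclei of cluster 0 (373.6 against 519 CPM) and cluster 5 (342.3 against 395.6 CPM). It was higher in cluster 4 (241.7 against 197.6 CPM). Medians per nucleus went the other way in cluster 0, with 326.6 against 294.7 CPM. Poisson intervals overlapped in cluster 2 (469.3 and 464.3 CPM) and cluster 3 (410.4 and 441.1 CPM). Cluster 2 held only 15 Oprm1-Cre nuclei and cluster 3 only 8 Slc32a1-Cre nuclei.

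In D2-like nuclei Chrm1 had the same log2 ratio, -0.22, with 323.9 CPM in Oprm1-Cre and 378.96 CPM in Slc32a1-Cre. Chrm3 was past the limit with a log2 ratio of -1.09, from 5.33 CPM in Oprm1-Cre and 16.96 CPM in Slc32a1-Cre. Chrm2 was past it the other way, at 1.75, through the 1 nucleus with Sst. Of 10974 genes, 29.2% were below -0.5 and 23.6% above 0.5, so such ratios were common. Without the nucleus richest in Chrm3 in each plate, the levels were 1.03 CPM in Oprm1-Cre and 14.9 CPM in Slc32a1-Cre. Only 24 D2-like nuclei stand behind the Oprm1-Cre values.

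No partner of muscarinic signalling was called between SPN types by edgeR. Of 13 genes on the Gi/o side 12 were tested, of 18 on the Gq/11 side 18, of 7 for acetylcholine synthesis, release and breakdown 5, and of 12 nicotinic receptor genes 5. In edgeR's test 0 members of each list were called in either direction, against 0.116% of all genes. Unadjusted p was under 0.05 for 2, 2, 2 and 0 members in that order, beside 597 of all 13819 genes tested. DESeq2 called 1 member of the Gq/11 list and 1 acetylcholine gene (Slc5a7), both higher in D1-like nuclei. Over all genes DESeq2 called 200 of 17156, counting both directions. With 4 sums and 1 residual degree of freedom, a missed threshold does not show that the types were alike. The median log2 fold changes were -0.19, -0.0028, 0.36 and -0.42, beside 0.10 over all genes tested.

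Of 10 partners named whatever their value, Adcy5, the main striatal adenylyl cyclase that M4 inhibits, had 1066 CPM for D1-like and 1193 CPM for D2-like nuclei in Oprm1-Cre, and 736 and 694 CPM in Slc32a1-Cre. Its log2 fold change of D1-like over D2-like nuclei was -0.09 ± 0.15 (SE). Gnal, the G protein subunit that stimulates Adcy5, had -0.21 ± 0.14, and Gnai1, an inhibitory subunit, 0.20 ± 0.34. On the Gq/11 side Gnaq had 0.60 ± 0.32, the phospholipase gene Plcb1 -0.35 ± 0.16 and the potassium channel gene Kcnq3 -0.04 ± 0.68. Rgs4, which shortens G protein signalling, had -0.40 ± 0.14, and Ache, which breaks down acetylcholine, -0.49 ± 0.31. All 8 had an adjusted p of 0.999 by edgeR. Chat was low in both types, with 1.65 CPM for D1-like and 1.70 CPM for D2-like nuclei in Oprm1-Cre, and 5.48 and 3.03 CPM in Slc32a1-Cre. Slc5a7 had reads in 1.33% of Oprm1-Cre and 2.05% of Slc32a1-Cre D1-like nuclei, and 0 reads in D2-like nuclei.

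**Figure D4:**
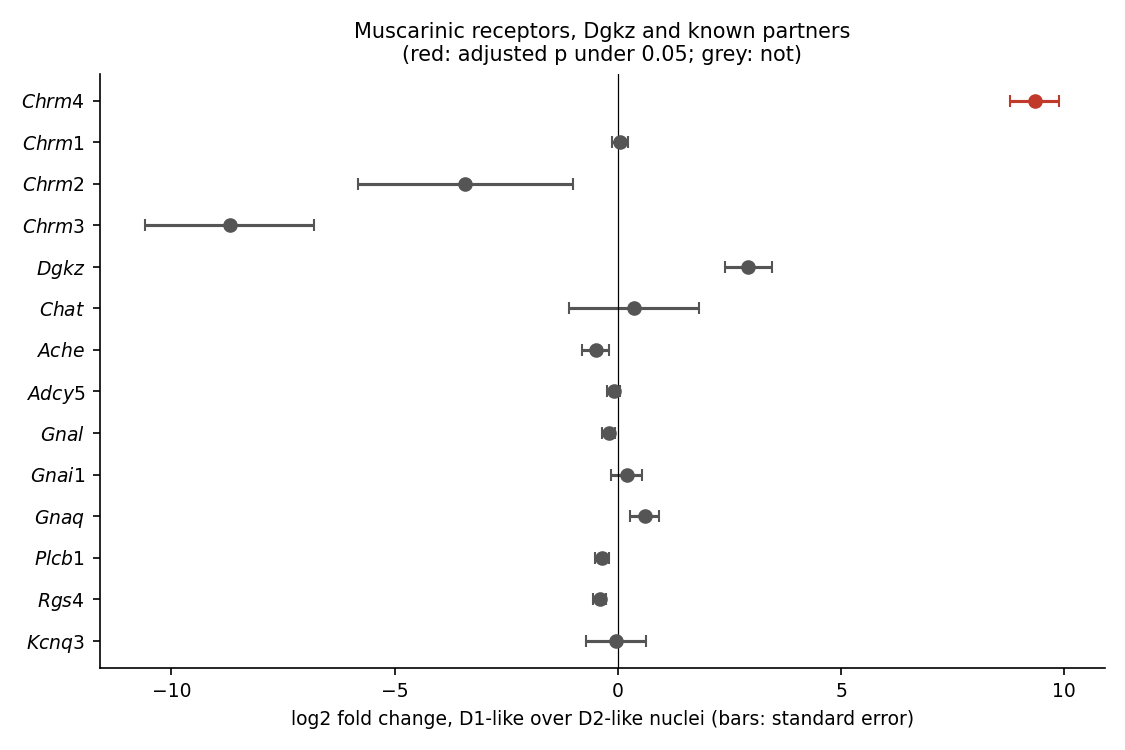
The horizontal axis is the log2 fold change of D1-like over D2-like nuclei in edgeR's fit, with approximate standard errors as bars, for 4 receptors, Dgkz and 9 partners. Chrm4, at 9.34, is the gene in red, called at an adjusted p under 0.05.

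Genes were also ranked by how closely they followed a receptor from nucleus to nucleus, by the lower of the plates' Pearson r of log2(CPM + 1) among 6548 genes read in at least 20% of SPN-like nuclei of each plate. Over the 707 SPN-like nuclei, correlated plate by plate, the first 5 for Chrm4 were Drd1a (r 0.52 in Oprm1-Cre and 0.73 in Slc32a1-Cre), Tac1 (0.50 and 0.67), Dgkz (0.34 and 0.48), Slc35d3 (0.32 and 0.59) and Serpine2 (0.40 and 0.30). By Spearman's rho the same 5 genes led, with lower values in Oprm1-Cre, such as 0.28 in Oprm1-Cre and 0.65 in Slc32a1-Cre for Drd1a, and 0.29 and 0.61 for Tac1. Drd1a, Tac1 and Slc35d3 are markers that define the D1-like class, and all genes of a nucleus share its depth. Within D1-like nuclei alone no gene exceeded a lower r of 0.19 with Chrm4. For Chrm3 the first were Adora2a (0.26 and 0.35) and Penk (0.17 and 0.33), which define the D2-like class. For Chrm1 the first was Psap, a lysosomal protein gene, with r of only 0.27 and 0.25, and Malat1, a nuclear RNA, had the lowest r, at -0.25 and -0.19.

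Dgkz, which encodes a diacylglycerol kinase, is also a close neighbour of Chrm4. In GRCm38.p6 it lies on the minus strand of chromosome 2 at 91932822 to 91976443, so that its end faces the end of Chrm4 at a distance of 2987 bases. Between them lies Mdk, on the minus strand at 91929805 to 91932297, which overlaps the end of Chrm4 by 31 bases. In Oprm1-Cre Dgkz had 107.7 CPM for D1-like and 7.52 CPM for D2-like nuclei, and in Slc32a1-Cre 72.9 CPM for D1-like and 15.8 CPM for D2-like nuclei. Its log2 fold change was 2.92 ± 0.53 (SE) with an unadjusted p of 0.00112 and an adjusted p of 0.361 by edgeR, so it was not called. Mdk had 3.76 CPM for Oprm1-Cre and 2.20 CPM for Slc32a1-Cre D1-like nuclei, against 0 and 0.438 CPM for D2-like nuclei. Within D1-like nuclei the r of Dgkz with Chrm4 was 0.15 in Oprm1-Cre and 0.14 in Slc32a1-Cre. Whether reads of one gene were counted for a neighbour was not tested.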

How the data were processed

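Each deposited value is a whole-number read count for 1 gene in 1 well, as the authors gave it, with 24489 genes, 92 spike-ins and 1 reporter entry. The joint table was used, after a check that its values equal those of the plate tables. Per the submitters' processing notes the build was mm10, with SAMtools and Seurat. Aligner, counter, annotation and strand setting were not given in the sources used here. RNA was isolated with a column kit and libraries were made with a stranded total RNA kit, per the labels' protocols, which name no step for single wells, so how the reads of a well were made stays uncertain. The labels of Slc32a1-Cre wells cite a table under the other plate's number, so wells were matched by column name.

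Wells with at least 1000 genes and 20000 reads on genes were kept. Nuclei were clustered with 2000 variable genes, 30 components, 15 neighbours and Leiden resolution 1 (seed 1, igraph 0.11.9, leidenalg 0.10.2). A cluster was interneuron-like when its interneuron marker score lay more than 1.5 above the mean over nuclei, a limit set with the data in view. The other clusters, all with an SPN score of at least 3, were SPN-like. No doublet caller was run, and 28 possible doublets were left out in an alternative.

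Counts summed per plate and class were tested with edgeR 4.0.16 (TMM, filterByExpr, plate as block, 4 sums, 1 residual degree of freedom), with DESeq2 1.42.0 as an alternative, and the edgeR steps were tested on simulated data. The SE given with edgeR's fold changes is approximate, worked out from the fold change and the F statistic of the test. Plates pair D1-like and D2-like sums by construction. With no animals named, p-values measure only the spread between these sums. Members, gene lists and tests were chosen with earlier results of these data known. The text names all members, list genes called by edgeR, 10 partners, and up to 5 genes most like a receptor. Dgkz was followed further, and the cholinergic and single nuclei were picked out, after their values were seen. The name of 1 partner called by DESeq2 is not reported here. Likeness was also ranked by Spearman's rho.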

Additional observations from a re-analysis of the deposited data

Results flagged for a closer look

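The 32 wells left out for low depth held 8 reads of Chrm1 in 6 wells, more than the 3 reads that a count of 0 allows, and 0 reads of Chrm2, Chrm3, Chrm4 and Chrm5. These wells belong to no comparison.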

How the results depend on the processing

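No fitted receptor fold change between D1-like and D2-like nuclei changed sign, nor did a receptor ratio between interneuron-like and SPN-like nuclei. With a score margin above 4, however, Chrm2 was not among the genes tested. Its levels then were 0.428 CPM (Oprm1-Cre) and 0.0445 CPM (Slc32a1-Cre) for D1-like nuclei, against 0 and 0.0341 CPM for D2-like ones. That order is the reverse of the main setting. Patch differences in Slc32a1-Cre D2-like nuclei, which have no threshold, did change sign, from 0.065 to -0.044 for Chrm1 and from -0.41 to 0.10 for Chrm3. Chrm4 was called in D1-like against D2-like nuclei under 8 of 8 alternatives. Among these, classing every nucleus alone gave the same nuclei and values as the main setting. The same holds for the 8 alternatives given for Chrm1 and Chrm3. The number of genes called there was 16, against 31 without a filter on low counts, 9 with a score margin above 4 and 200 by DESeq2, which also called Chrm3 (log2 fold change -9.03). The plates pair the sums, and without the plate as a replicate block 8 genes were called, Chrm4 among them (9.47, adjusted p 0.0225 by edgeR). One plate alone, with no test, gave 0.02 to 0.05 for Chrm1, -5.01 to -0.10 for Chrm2, -8.09 to -5.81 for Chrm3 and 8.05 to 9.52 for Chrm4. The causes of these shifts were not tested.

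Between genotypes, the log2 ratio of Chrm1 in D1-like nuclei was -0.11 with a score margin above 4, -0.28 from the mean over nuclei and -0.18 without Malat1 and Meg3 in the total. In D2-like nuclei Chrm1 had -0.39 from the mean over nuclei and -0.35 without the nucleus with most reads, an alternative chosen after seeing the data. Chrm3 there had -1.50 with 1 CPM added, -1.58 with 0.5 CPM added and -1.72 without its richest nucleus.

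Shares without thinning were 85.7% (Oprm1-Cre) and 86.7% (Slc32a1-Cre) of D1-like nuclei for Chrm1, 89% and 84.6% for Chrm4, and 76% and 74.9% for both together. Thinned to 100000 reads, Slc32a1-Cre D1-like nuclei had 86.9% for Chrm1 and 82.4% for Chrm4. At 5 or more thinned reads the D1-like shares were 68.1% and 72.7% for Chrm1 and 68.1% and 61.9% for Chrm4. The D2-like shares were then 69.1% for Chrm1 in Slc32a1-Cre, 0 and 6.71% for Chrm3, and 0 and 0 for Chrm4.

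With the patch score split at its median in Slc32a1-Cre, the log2 difference of patch-leaning over matrix-leaning was 0.17 for Chrm1 in D1-like nuclei, and -0.044 for Chrm1 and 0.10 for Chrm3 in D2-like nuclei. For interneuron-like over SPN-like nuclei, Chrm1 in Slc32a1-Cre had a log2 ratio of -3.16, against -2.86 without possible doublets, -3.44 from the mean over nuclei, -4.88 without its richest nucleus and -2.20 without the Nxph1 and Kit cluster (a limit of 2, chosen after seeing the data). Chrm2 had 4.68 in Oprm1-Cre, against 4.91, 4.40 and 4.47 under the first 3 of these and 5.39 without the undecided nuclei, also chosen after seeing the data. In Slc32a1-Cre it had 3.22, against 2.76 without its richest nucleus and 3.77 without that cluster. Of the first 5 genes by Pearson r over SPN-like nuclei, Spearman's rho kept 5 for Chrm4, 4 for Chrm1 and 3 for Chrm3, and within D1-like nuclei 0 for Chrm4 and 1 for Chrm1. Chrm3 and Chrm5 rest on 553 and 83 reads in all.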
